A study of Mus musculus with 142 samples.

Results

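The 4 Hox clusters of the mouse hold genes for homeodomain transcription factors, and their replication timing (RT) was described here from the 16 windows of 50 kb that overlap them. The windows were chosen by position alone, out of 49264 windows on the 19 autosomes. They are 4 windows for Hoxa (chr6:52100001-52300000), 5 for Hoxb (chr11:96150001-96400000), 3 for Hoxc (chr15:102900001-103050000) and 4 for Hoxd (chr2:74600001-74800000), all in mm10. The start sites of 38 Hox genes fall in 13 of these windows, 10 genes each in Hoxa and Hoxb and 9 each in Hoxc and Hoxd. A further 160 windows within 1 Mb of the clusters served as context.

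The study deleted parts of early replication control elements (ERCEs) in the Dppa2/4 domain of chromosome 16 with CRISPR in F121-9 cells, a hybrid mouse embryonic stem cell (mESC) line with 1 musculus and 1 castaneus homolog of each chromosome, grown in 2i and LIF. Cells were labelled with BrdU for 2 h and sorted into early and late S phase, and RT is log2 of early over late reads, E/L, so a higher value is earlier. The table held 66 libraries from 53 clones of 26 cell lines, where a cell line is named by its deletion. No Hox cluster lies on chromosome 16, so the deletions were used here only as labels of clones.

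The cell lines were COSN1, COSN12, COSN123, COSN1.2.8k, CL20k, CR11.8k, CR13.4k, CR14.6k and CTSS (parts of ERCE C), A.COSN12, A.COSN123, AOSN.COSN12, AOSN.COSN123 and Z.AOSN.COSN123 (A and C, with the site Z upstream of A in the last), BOSN1.COSN123 and BOSN12.COSN123 (B and C), Z.B.C, BTSS and BTSS.CTSS, and lines with parts of all 3 elements (A.B.COSN123, AOSN.B.COSN123, A.BOSN1.COSN123, A.BOSN12.COSN123, AOSN.BOSN12.COSN123, A.BOSN12.BTSS.COSN123 and ATSS.BTSS.CTSS). OSN marks deleted binding sites of Oct4, Sox2 and Nanog, and TSS marks deleted transcription start sites. Of these lines 7 had 1 clone and 19 had 2 or more, COSN123 itself being 1 clone. By the column labels, a deletion lay on the musculus homolog in 51 of the 53 clones and on the castaneus homolog alone in the other 2 (CR11.8k 50 and CTSS C4). In 8 of the 51 the castaneus homolog was also named for a deletion, B in 4 clones (A.B.COSN123 5A.7 and the AOSN.B.COSN123 clones 2A.2, 3C.4 and 5A.6), ATSS in the 3 ATSS.BTSS.CTSS clones and BTSS in 1 (BTSS.CTSS C11). A clone with several cultures was averaged first. Clones whose label holds COSN123 numbered 24, and since many deletions were made in cells that already carried another, clones share ancestry and the p-values below take them as more independent than they are.

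Hox genes specify position along the body axis. Within a cluster the genes are ordered as they are used: low paralogue groups act early and anteriorly, high groups late and posteriorly. In mESCs the clusters are silent or nearly so, and their promoters carry Polycomb marks together with marks of active promoters. Early replication is usually found in gene-rich, open chromatin, and late replication in gene-poor chromatin at the nuclear periphery. Hoxd lies between gene deserts that hold its limb and trunk enhancers, whereas Hoxb and Hoxc lie among many other genes.

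The clusters also share short regulatory sequences. Only those mature miRNAs inside them that share a seed with one of another cluster are shown, and the miR-10 pair lies in windows of different timing. The others, both arms of miR-615 and the 3p arms of miR-10 and miR-196, share no seed and are not shown. The sequences come from RefSeq (GRCm38.p6), run 5′ to 3′, and have the seed, bases 2 to 8, in capitals.
mmu-miR-10a-5p, Hoxb: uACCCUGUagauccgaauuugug
mmu-miR-10b-5p, Hoxd: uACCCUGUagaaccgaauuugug
mmu-miR-196b-5p, Hoxa: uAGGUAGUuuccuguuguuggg
mmu-miR-196a-5p, Hoxb and Hoxc: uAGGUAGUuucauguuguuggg
The window of Mir10a had a mean RT of 1.31 on musculus and 1.29 on castaneus, and that of Mir10b, with the same seed, 0.99 and 1.01. Mir196b in Hoxa (1.36 and 1.35) and the 2 Mir196a genes in Hoxb (1.37 and 1.34) and Hoxc (1.34 and 1.25) share another seed and lie in windows of similar timing.

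Promoters of Hoxa13 and Hoxd13 are shown because these genes, of the same paralogue group and active late in limb and genital development, both have CpG-rich promoters and lie in windows of different RT. Each run is the 250 bases before the RefSeq start in GRCm38.p6, on the gene's strand, with CpG in capitals.
Hoxa13, chr6:52260881-52261130, minus strand: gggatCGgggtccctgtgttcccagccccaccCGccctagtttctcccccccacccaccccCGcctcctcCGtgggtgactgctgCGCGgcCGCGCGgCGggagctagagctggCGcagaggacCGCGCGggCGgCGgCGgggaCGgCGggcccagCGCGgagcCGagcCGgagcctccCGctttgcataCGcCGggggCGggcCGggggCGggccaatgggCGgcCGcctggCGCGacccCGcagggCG
Hoxd13, chr2:74667975-74668224, plus strand: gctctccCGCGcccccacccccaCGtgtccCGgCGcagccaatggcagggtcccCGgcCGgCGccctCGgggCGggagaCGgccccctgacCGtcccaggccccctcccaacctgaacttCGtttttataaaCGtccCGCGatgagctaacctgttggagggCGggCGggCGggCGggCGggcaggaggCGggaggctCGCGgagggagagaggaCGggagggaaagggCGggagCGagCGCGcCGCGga
The first holds 35 CpG and the second 31. RefSeq sequences were at hand for 24 promoters of 22 of the 38 genes. Most were of Hoxa and Hoxd genes, with only Hoxb1, Hoxb4 and Hoxb8 from Hoxb and only Hoxc4 from Hoxc. All 24 held a CG, searched as these 2 letters on one strand since CG reads the same on the other, as did 92.1% of all 32851 promoters. They held between 2 and 35, with a median of 12.5, against a median of 6 over all promoters.

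Which part of S phase the clusters occupy was the first question. Hoxa, Hoxb and Hoxc were among the earliest parts of the genome on both homologs, and Hoxd was earlier than the genome's median but later than the other three. Hoxa RT on musculus was 1.35 ± 0.12 (SD, n = 52 clones), with the lowest clone at 1.03, the median at 1.35 and the highest at 1.57. On castaneus it was 1.34 ± 0.13 (SD, n = 53), from 1.09 through 1.35 to 1.63. Hoxb RT on musculus was 1.34 ± 0.14 (SD, n = 53), from 1.00 through 1.35 to 1.62. On castaneus it was 1.31 ± 0.16 (SD, n = 47), from 0.75 through 1.33 to 1.59. These 2 clusters overlapped over most of their range.

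Hoxc RT on musculus was 1.34 ± 0.18 (SD, n = 51), from 0.94 through 1.35 to 1.86, and on castaneus 1.28 ± 0.15 (SD, n = 51), from 0.98 through 1.30 to 1.65. Hoxd RT on musculus was 0.94 ± 0.26 (SD, n = 53), from 0.19 through 0.97 to 1.42. On castaneus it was 0.92 ± 0.25 (SD, n = 53), from 0.25 through 0.94 to 1.37. No clone had a cluster mean at or below 0. After scaling and quantile normalization 0 need not be where early and late reads balance, but it lay near the middle of the values. Of all windows 48.2% were above it on musculus and 48.8% on castaneus. Over all windows the median was -0.09 on musculus and -0.06 on castaneus and the upper quartile 1.00 and 1.01. Hoxa stood at the 97.7th percentile on musculus and the 96.1st on castaneus, Hoxb at the 96.5th and 94.3rd, Hoxc at the 97.9th and 90.3rd, and Hoxd at the 72.8th and 72.4th. These percentiles set the mean of a cluster's window means beside single windows. With missing values that mean differs slightly from the mean over clones, and on musculus it was 1.354 in Hoxc and 1.351 in Hoxa.

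**Figure D1:**
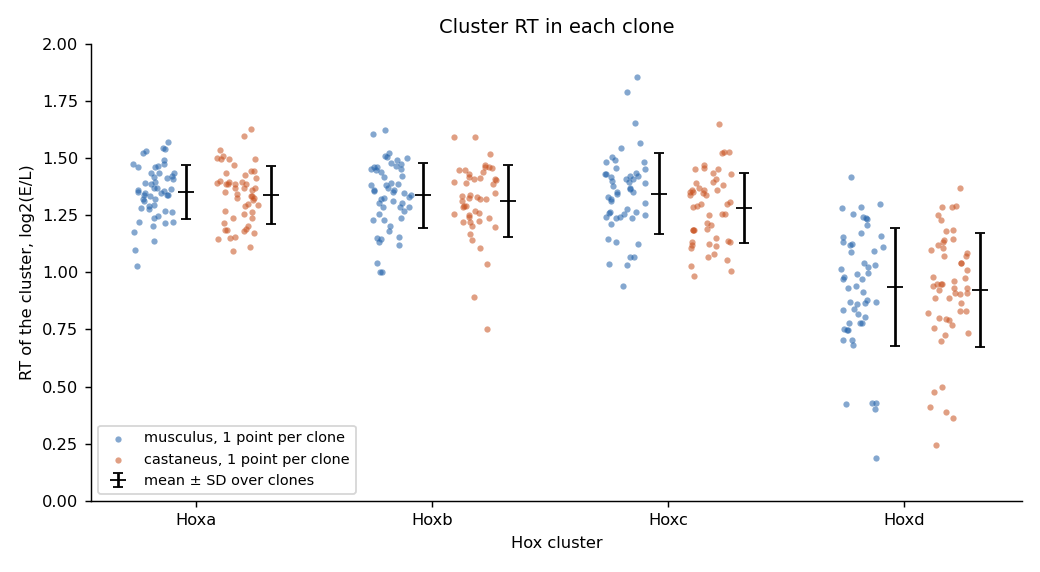
RT of each Hox cluster, log2(E/L) averaged over its windows, in each clone (points) on musculus (blue) and castaneus (orange), with the mean ± SD over clones in black. Hoxa, Hoxb and Hoxc centre between 1.28 and 1.35, and Hoxd centres at 0.94 and 0.92 with a wider spread that reaches down to 0.19.

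The order of the clusters was therefore Hoxa, Hoxb and Hoxc together, then Hoxd. Hoxa minus Hoxb averaged 0.02 ± 0.16 (SD, n = 52) on musculus, with Hoxa earlier in 28 clones, and Hoxa minus Hoxc averaged 0.01 ± 0.19 (SD, n = 51), with Hoxa earlier in 24. These neighbours did not differ beyond their spread. Hoxa minus Hoxd averaged 0.42 ± 0.24 (SD, n = 52) on musculus, with Hoxa earlier in 50 clones, and 0.42 ± 0.26 (SD, n = 53) on castaneus, with Hoxa earlier in 52. Among clones with all 4 clusters measured, Hoxd was the latest in 46 of 51 on musculus and in 38 of 45 on castaneus. The latest cluster was otherwise Hoxa in 2 clones and Hoxc in 3 on musculus, and Hoxb in 5, Hoxa in 1 and Hoxc in 1 on castaneus.

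Gene by gene, the 50 kb windows give neighbouring Hox genes the same value, and smoothing over 300 kb makes adjacent windows alike. At the ends of Hoxa, the window of Hoxa2, a gene of hindbrain and second-arch patterning, had an RT of 1.40 ± 0.15 (SD, n = 43) on musculus and 1.31 ± 0.19 (SD, n = 44) on castaneus. Hoxa4, active in the neck region, shares that window, which had the largest musculus minus castaneus difference in Hoxa. Hoxa13 at the other end had 1.30 ± 0.15 (SD, n = 50) and 1.33 ± 0.17 (SD, n = 51). The 7 genes between them (Hoxa3, Hoxa5, Hoxa6, Hoxa7, Hoxa9, Hoxa10 and Hoxa11) share 1 window at 1.36 ± 0.18 (SD, n = 49) and 1.35 ± 0.17 (SD, n = 49), the Hoxa window with the largest spread between clones on musculus. All 10 Hoxa genes thus fell between 1.30 and 1.40 on musculus and between 1.31 and 1.35 on castaneus.

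In Hoxb, Hoxb1, which acts in the hindbrain, had 1.26 ± 0.20 (SD, n = 53) on musculus and 1.27 ± 0.18 (SD, n = 46) on castaneus. Hoxb13, at the far end beyond a gap without Hox genes and known from prostate and tail, had 1.34 ± 0.21 (SD, n = 53) and 1.31 ± 0.22 (SD, n = 46), the widest spread among the Hoxb windows. Hoxb6, Hoxb7, Hoxb8 and Hoxb9, genes of the trunk, lie in the Hoxb window with the largest allele difference and had 1.37 ± 0.17 (SD, n = 49) and 1.34 ± 0.19 (SD, n = 43). In Hoxc, Hoxc4 had 1.40 ± 0.18 (SD, n = 45) and 1.33 ± 0.16 (SD, n = 46), and Hoxc13, a regulator of hair and nail keratins, 1.32 ± 0.20 (SD, n = 48) and 1.25 ± 0.17 (SD, n = 51). The 6 genes between Hoxc4 and Hoxc12 (Hoxc5, Hoxc6, Hoxc8, Hoxc9, Hoxc10 and Hoxc11) had 1.34 ± 0.21 (SD, n = 41) and 1.25 ± 0.17 (SD, n = 42).

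In Hoxd, Hoxd1 had 0.84 ± 0.29 (SD, n = 53) on musculus and 0.82 ± 0.30 (SD, n = 53) on castaneus. Hoxd13 and its neighbours Hoxd9, Hoxd10, Hoxd11 and Hoxd12, the set used in digits and forearm, had 0.99 ± 0.28 (SD, n = 50) and 0.97 ± 0.27 (SD, n = 51). Hoxd3, Hoxd4 and Hoxd8 had 0.99 ± 0.27 (SD, n = 49) and 1.01 ± 0.30 (SD, n = 52). In 1 clone the Hoxd1 window was at or below 0 on musculus. The latest gene of any of the other three clusters, Hoxb1 on musculus and Hoxc12 and Hoxc13 on castaneus, was thus still earlier on average than the earliest Hoxd gene. The same order held for paralogues: on musculus the group 9 genes Hoxa9, Hoxb9 and Hoxc9 had 1.36, 1.37 and 1.34 and Hoxd9 0.99.

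Whether RT follows gene order was asked by subtracting the window of the low-group end from that of the group 13 end in each clone. In Hoxa this difference averaged -0.11 ± 0.17 (SD, n = 43) on musculus, with the Hoxa13 end earlier in 10 clones, and 0.01 ± 0.23 (SD, n = 43) on castaneus, with 22. In Hoxc it averaged -0.08 ± 0.17 (SD, n = 43) on musculus and -0.08 ± 0.13 (SD, n = 46) on castaneus. In Hoxb it averaged 0.07 ± 0.27 (SD, n = 53) and 0.04 ± 0.24 (SD, n = 46). In Hoxd it averaged 0.18 ± 0.23 (SD, n = 50) and 0.15 ± 0.25 (SD, n = 51), with the Hoxd13 end earlier in 44 of 50 and 41 of 51 clones. The mean differences did not share a sign over the 4 clusters, and each was smaller than its SD. That SD describes single clones and is not the error of the mean, and in Hoxd most clones had the same sign.

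The surroundings of the clusters differed more than the clusters did. Hoxb lay inside a long early plateau: the mean profile stayed at or above 1.05 throughout 1 Mb on both sides, and the first window at or below 0 was 2450 kb before and 3100 kb after the cluster on musculus. Hoxa lay near the end of a plateau. On musculus its first window at or below 0 was 1050 kb before and 750 kb after the cluster, on the side of Hoxa13 and Evx1, and RT reached -0.64 on musculus and -0.65 on castaneus 950 kb beyond the edge. The gene Creb5 starts in that last window. Hoxc lay 1200 kb from the nearest such window before it on musculus, and none was found between it and the distal end of chromosome 15, although RT dipped to 0.48 on musculus and 0.37 on castaneus 650 kb beyond the cluster.

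Hoxd lay on an isolated early peak. RT on musculus fell to 0 or below 150 kb before and 350 kb after the cluster, and 14 windows, 700 kb, around it were above 0, against 15 windows and 750 kb on castaneus. The trough before the peak, 300 kb from the cluster on the Hoxd13 side, had an RT of -0.28 ± 0.16 (SD, n = 53) on musculus. The trough after it, 400 kb from the cluster on the Hoxd1 side, had -0.05 ± 0.18 (SD, n = 53). No protein-coding gene starts in these trough windows. The cluster exceeded the first trough by 1.21 ± 0.30 (SD, n = 53) and the second by 0.98 ± 0.34 (SD, n = 53), and did so in 53 of 53 clones for each. On castaneus the differences were 1.09 ± 0.27 and 0.97 ± 0.35 (SD, n = 53), again in every one of the 53 clones. The troughs were taken as the lowest windows of the mean profile of these same clones. The sign of the differences was therefore largely set by that choice. Beyond the troughs RT on musculus was early again, up to 1.26 before, where Chn1 and Atf2 start, and up to 1.30 after, where Hnrnpa3 and Nfe2l2 start.

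**Figure D2:**
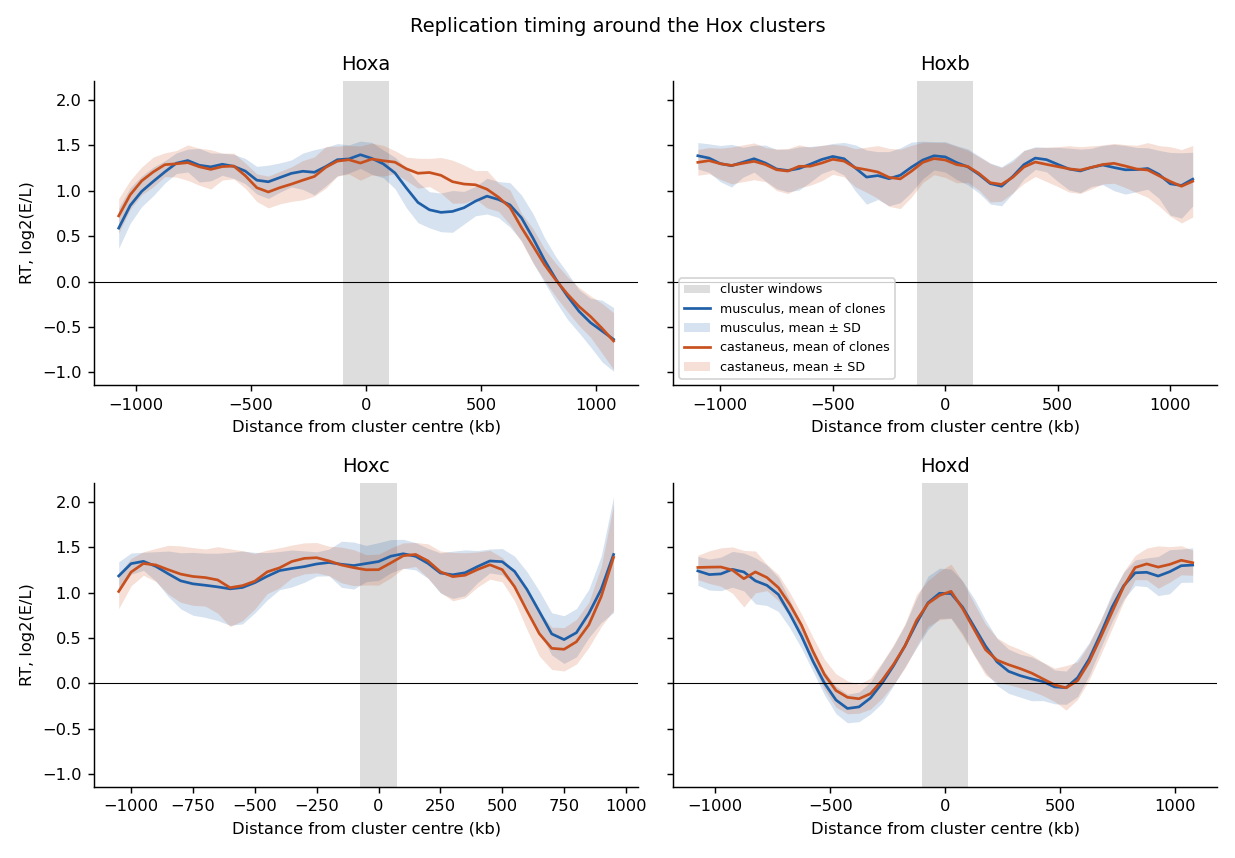
RT, log2(E/L), of the windows within 1 Mb of each Hox cluster against the distance from the cluster centre in kb, as the mean over clones (lines) ± SD (bands) for musculus (blue) and castaneus (orange), with the cluster windows in grey. Hoxa, Hoxb and Hoxc sit on plateaus above 1, while Hoxd is a peak near 1 between troughs of -0.28 and -0.05 on musculus.

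Within the clusters RT changed little from window to window. The steepest step between adjacent windows was 0.06 in Hoxa, 0.06 in Hoxb and 0.06 in Hoxc on musculus, close to the median step of 0.07 over the genome. In Hoxd it was 0.15 on musculus and 0.19 on castaneus, the 79.4th and 87.6th percentile of all steps. The steepest steps in its flanks were 0.30 on musculus, 700 kb after the centre, and 0.29 on castaneus, 600 kb before it. Both lie on the outer slopes of the troughs, where the profile returns to early RT.

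The hybrid cells let the homologs be compared in the same clone. In no Hox window did musculus and castaneus differ by 0.25 or more with an adjusted p of 0.05 or less (limma, musculus minus castaneus per clone, Benjamini-Hochberg over 44259 windows), where 19.6% of all windows did. The mean differences in the 16 windows ran from -0.04 to 0.09. By adjusted p alone 1 of 16 windows passed, against 61% of all windows, and 3 of 16 had an unadjusted p under 0.05. The 1 window was that of Hoxc12 and Hoxc13, where musculus was earlier by 0.07 ± 0.03 (SE, n = 48) with a limma adjusted p of 0.0147, in 34 of 48 clones. Both other Hoxc windows had means of like size, 0.08 and 0.07, with limma adjusted p of 0.0846 and 0.0637.

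For single clones the spread was wider than these means. The cluster difference in Hoxa ranged from -0.36 through a median of 0.01 to 0.29 (SD 0.14, n = 52), and musculus was the earlier homolog in 27 of 52 clones. In Hoxb it ranged from -0.45 through 0.02 to 0.60 (SD 0.18, n = 47). In Hoxc it ranged from -0.32 through 0.04 to 0.67 (SD 0.18, n = 50), with musculus earlier in 31 clones. In Hoxd it ranged from -0.23 through 0.00 to 0.33 (SD 0.12, n = 53). The clone at each extreme was early on one homolog and less early on the other. In Hoxb, COSN12 B6 had 1.36 on musculus and 0.75 on castaneus, and ATSS.BTSS.CTSS C4 had 1.00 and 1.45. In Hoxc, BOSN1.COSN123 E6 had 1.79 and 1.12, and A.COSN12 D6 had 1.03 and 1.35. The values of A.COSN12 D6 came from 1 of the 3 Hoxc windows on musculus and 2 on castaneus, so they do not cover the same windows. In Hoxa, BTSS.CTSS H11 had 1.03 and 1.39, and in Hoxd, ATSS.BTSS.CTSS C4 had 0.81 and 0.48. Clones with a difference of 0.25 or more in size numbered 4 in Hoxa, 6 in Hoxb, 8 in Hoxc and 3 in Hoxd.

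The homologs did differ next to Hoxa. Of 158 flanking windows tested around the 4 clusters 5 were called (3.16%), all 5 later on musculus, where 10.7% of all windows were later on musculus. They adjoin each other, from 100 to 350 kb beyond the Hoxa13 end (chr6:52400001-52650000), past Evx1, a homeobox gene next to the cluster. Hibadh, a mitochondrial enzyme of valine breakdown, starts in the farthest of them. In the window 150 kb from the edge musculus ranged over clones from 0.44 through 0.81 to 1.29 and castaneus from 0.81 through 1.19 to 1.61. The homologs overlapped over clones, but musculus was later in 50 of 53 clones, by -0.41 ± 0.03 (SE, n = 53; limma adjusted p = 3.86e-21). The mean difference was -0.39 in clones with COSN123 and -0.43 in the others, and lay between -0.44 and -0.39 when any 1 cell line was left out. The windows of Evx1 (-0.11, limma adjusted p = 2.11e-05) and Hoxa13 (-0.04, limma adjusted p = 0.298) lie on the way from that difference to the cluster, where smoothing over 300 kb mixes neighbouring windows. On musculus the mean profile fell from 1.30 at Hoxa13 to 0.76 in the window 200 kb from the edge and rose again to 0.94 at Tax1bp1, an autophagy adaptor, 400 kb away. On castaneus it fell from 1.33 to 1.17 and 1.02 in the same windows, without such a dip. In the window 700 kb away the means were 0.02 on musculus and 0.01 on castaneus, just before the profile crossed 0 at Jazf1. By adjusted p alone, flanking windows of all 4 clusters passed. After Hoxc, 500 and 550 kb from the edge, musculus was earlier by 0.23 and 0.24 (limma adjusted p = 5.09e-14 and 6.81e-14). Those 2 windows fell just under the size needed for a call, and in each musculus was later in 4 of 53 clones.

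**Figure D3:**
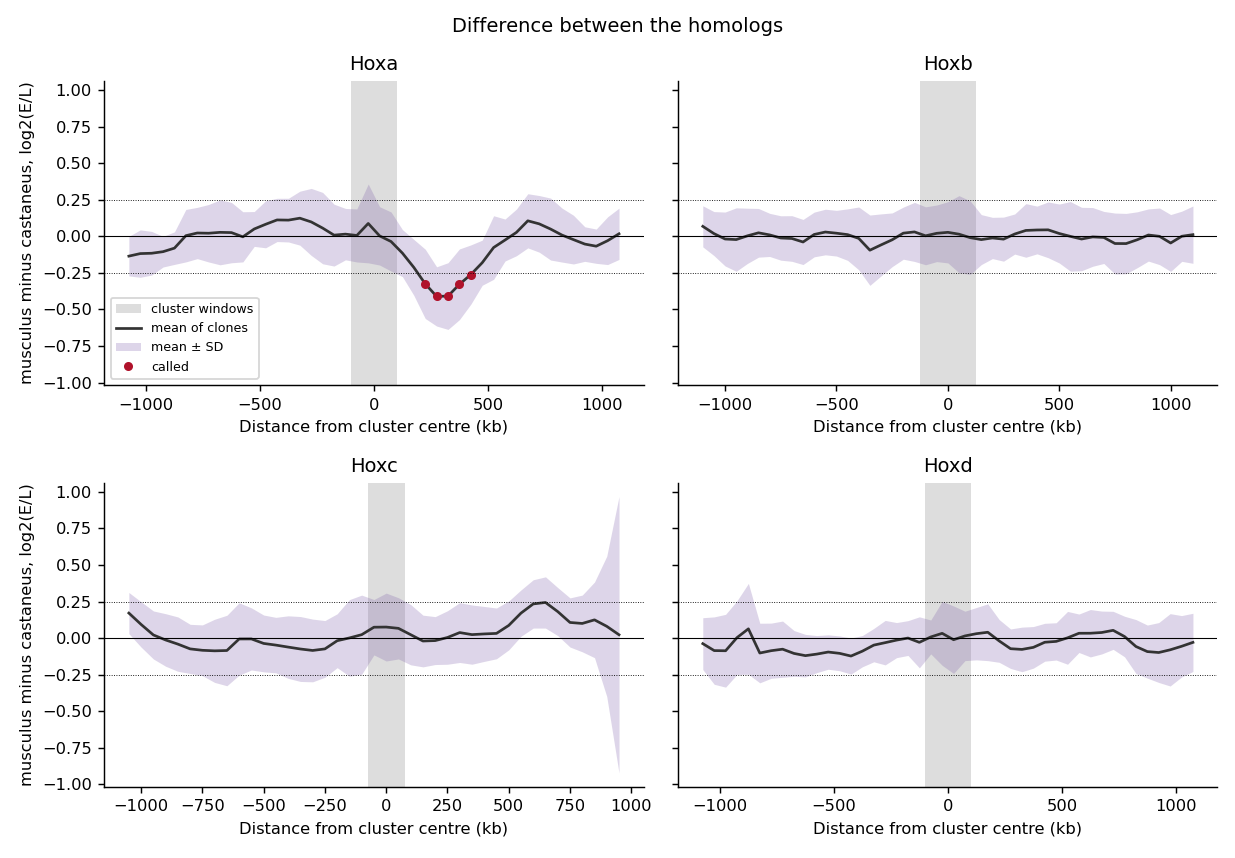
RT of musculus minus castaneus, log2(E/L), within 1 Mb of each Hox cluster against the distance from the cluster centre in kb, as the mean over clones (line) ± SD (purple band), with the cluster windows in grey, windows called at an adjusted p of 0.05 or less and 0.25 or more in size in red and dotted lines at that size. The 5 called windows lie after Hoxa, down to -0.41, and no window inside a cluster is called.

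How much the clusters varied between clones was described by the SD over clones. Beside all windows, whatever their timing, Hoxd varied more than most and Hoxa less. The mean SD of the Hoxd windows was 0.28 on musculus and 0.28 on castaneus, at the 92.4th and 91st percentile of all windows. Without the 4 BTSS and BTSS.CTSS clones it was 0.23 on each homolog, below the upper quartile of 0.24 over all windows. In Hoxa it was 0.16 and 0.17, in Hoxb 0.18 and 0.19 and in Hoxc 0.20 and 0.17, between the 15.8th and 44.5th percentile. Hoxd was also set beside the 2530 windows with a mean within 0.1 of its own on musculus, whose median SD was 0.19, against 0.16 for windows timed like Hoxa. Hoxd stood at the 97.7th percentile of these on musculus, and at the 97.3rd of 2523 such windows on castaneus. Set beside windows of their own timing in the same way, the other clusters were not low. Hoxa stood at percentile 52.2 on musculus and 63.3 on castaneus, Hoxb at 72.2 and 75.6, and Hoxc at 83.4 and 51.8.

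The SD between cultures of the same clone, from 11 clones with 2 or more cultures, averaged 0.16 in Hoxd on either homolog, below the SD between clones. In Hoxa it averaged 0.19 on musculus and 0.15 on castaneus, about the size of the SD between clones. In Hoxd the homologs of a clone moved together more closely than in the other clusters. The SD over clones of the mean of both homologs was 0.25 in Hoxd, 2.13 times the SD of their difference. The same ratio was 0.68 in Hoxa, 0.70 in Hoxb and 0.78 in Hoxc. Homologs that vary independently would give a ratio below each of these, so some shared movement is present in every cluster. Of the 10 clones lowest in Hoxd on musculus, 7 were among the 10 lowest on castaneus, and of the 10 highest 4 were among the 10 highest on castaneus. The BTSS and BTSS.CTSS clones were the lowest on both homologs, and the ratio was not computed without them.

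**Figure D4:**
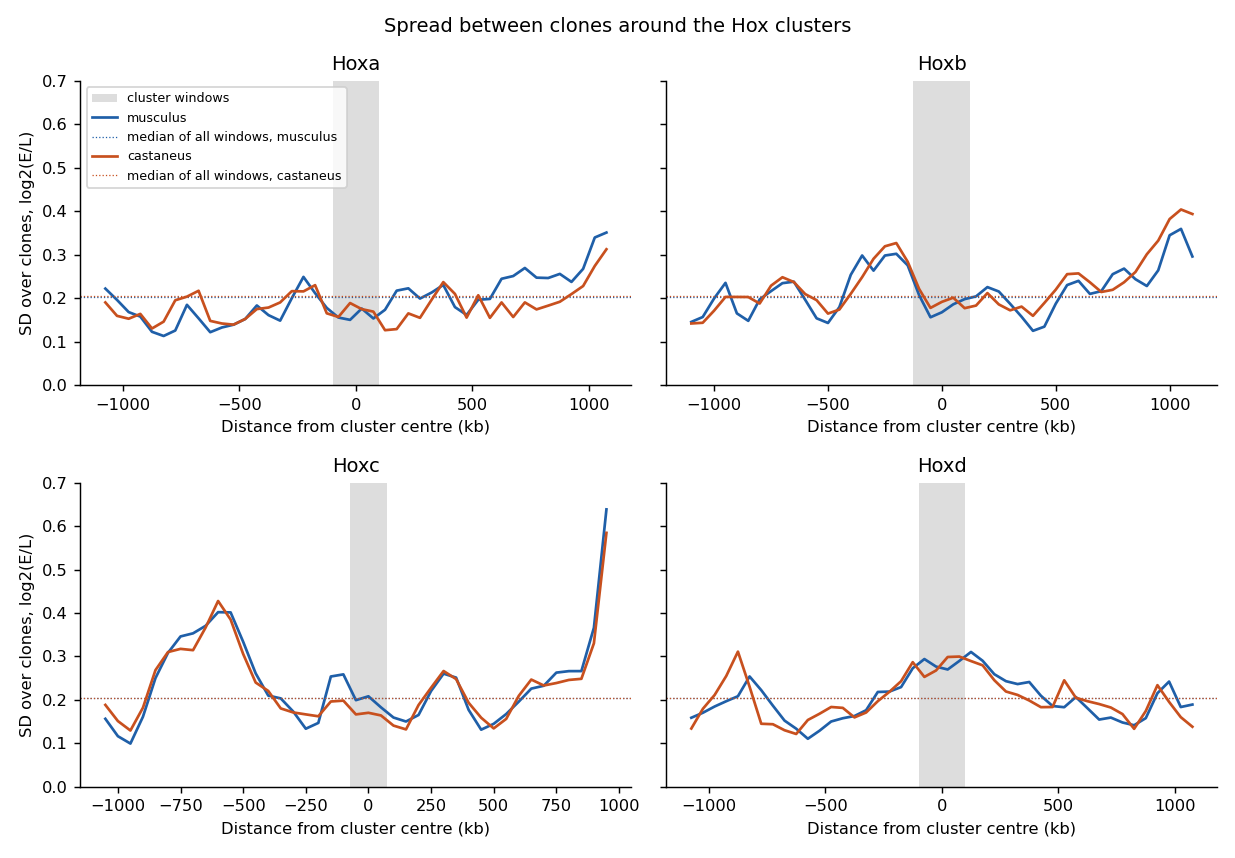
SD over clones of RT, log2(E/L), within 1 Mb of each Hox cluster against the distance from the cluster centre in kb, for musculus (blue) and castaneus (orange), with the median SD of all windows dotted. The SD is 0.25 to 0.30 in the Hoxd windows, while Hoxa, Hoxb and Hoxc lie near or below the medians of 0.20 and 0.21 and the flanks of Hoxc reach 0.64.

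The flanks of the other clusters held more variable windows than the clusters. Around 500 kb before Hoxc, at the genes Aaas and Sp7 (a regulator of bone formation), the SD reached 0.40 on musculus and 0.43 on castaneus, above the 99.6th percentile. The highest values after Hoxc, 0.64 and 0.58, were in the last measured window of chromosome 15. Around Hoxd the SD had a median of 0.18 before and 0.20 after the cluster on each homolog, with 0.31 on musculus and 0.29 on castaneus in the first window after the cluster and 0.31 on castaneus 750 kb before it.

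Cell lines differed in Hoxd RT, as they did in most windows of the genome that were tested. The moderated F test of limma over the 19 lines with 2 or more clones (46 clones) needed a value in every line, which left 8 Hox windows on musculus and 7 on castaneus. Of these 6 passed on musculus, 4 in Hoxb and 2 in Hoxd, and 4 passed on castaneus, all in Hoxd. The background was high, with 61% of all windows passing on musculus and 65% on castaneus, so the counts do not set the Hox windows apart. The Hoxd window nearest to Lnpk, at chr2:74600001-74650000, had the lowest limma adjusted p, 0.000172 on musculus and 3.78e-05 on castaneus. Neither Hoxa window tested passed on either homolog (limma adjusted p from 0.144 to 0.568; 0 of 2 had an unadjusted p under 0.05).

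The line means of Hoxd ranged from 0.42 to 1.28 on musculus and from 0.39 to 1.27 on castaneus. The lowest was BTSS.CTSS, whose 3 clones had 0.40, 0.43 and 0.43 on musculus and 0.36, 0.39 and 0.41 on castaneus. The single BTSS clone was lower still, at 0.19 on musculus and 0.25 on castaneus. Next came CL20k, whose 2 clones differed, with 0.43 and 0.75 on musculus and 0.50 and 0.74 on castaneus. The 3 clones of ATSS.BTSS.CTSS, which also lack BTSS, had 0.70, 0.75 and 0.81 on musculus and 0.93, 0.90 and 0.48 on castaneus, and the A.BOSN12.BTSS.COSN123 clone had 0.86 and 0.83. At the other end both CR13.4k clones had 1.25 and 1.30 on musculus and 1.25 and 1.29 on castaneus. Each had values in only 2 of the 4 Hoxd windows on musculus, and clone 2-49 in 3 on castaneus. The clones of COSN1.2.8k were far apart, at 0.78 and 1.42 on musculus, the higher value also from 2 windows.

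Without BTSS.CTSS, 1 of the 4 Hoxd windows still passed on castaneus and 1 of 2 on musculus (limma adjusted p = 0.00287 and 0.00359, both the window nearest to Lnpk), where 59.8% and 55.8% of all windows did, and the F test over lines then gave adjusted p from 0.0525 to 0.209 in the other 3 on castaneus. The 4 BTSS and BTSS.CTSS clones, of lines singled out after their values were seen, were then followed outward from Hoxd. In the cluster they averaged 0.36 on musculus against 0.97 in the other clones, and 0.35 against 0.97 on castaneus. Within 500 kb of the cluster they averaged -0.12 against 0.13 on musculus. From 500 kb to 1 Mb away they averaged 1.05 against 1.04 on musculus and 1.08 against 1.08 on castaneus, with differences in single windows from -0.17 to 0.26 and from -0.14 to 0.21. Hoxa RT of the same BTSS.CTSS clones averaged 1.16 on musculus and 1.23 on castaneus, near the low end of the line means. On castaneus its clones ranged from 1.11 to 1.39. The BTSS clone had a Hoxa RT of 1.22 on musculus and 1.43 on castaneus. In Hoxb, BTSS.CTSS averaged 1.32 and 1.33, and the BTSS clone had 1.48 and 1.46. In Hoxc, BTSS.CTSS averaged 1.41 and 1.35, and the BTSS clone had 1.25 and 1.03. By the study's account the BTSS deletion was made in unedited cells for BTSS and in cells already without CTSS for BTSS.CTSS. The 2 CTSS clones had Hoxd RT of 0.93 and 1.17 on musculus and 0.89 and 1.11 on castaneus, and the part of ancestry in these values was not tested.

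**Figure D5:**
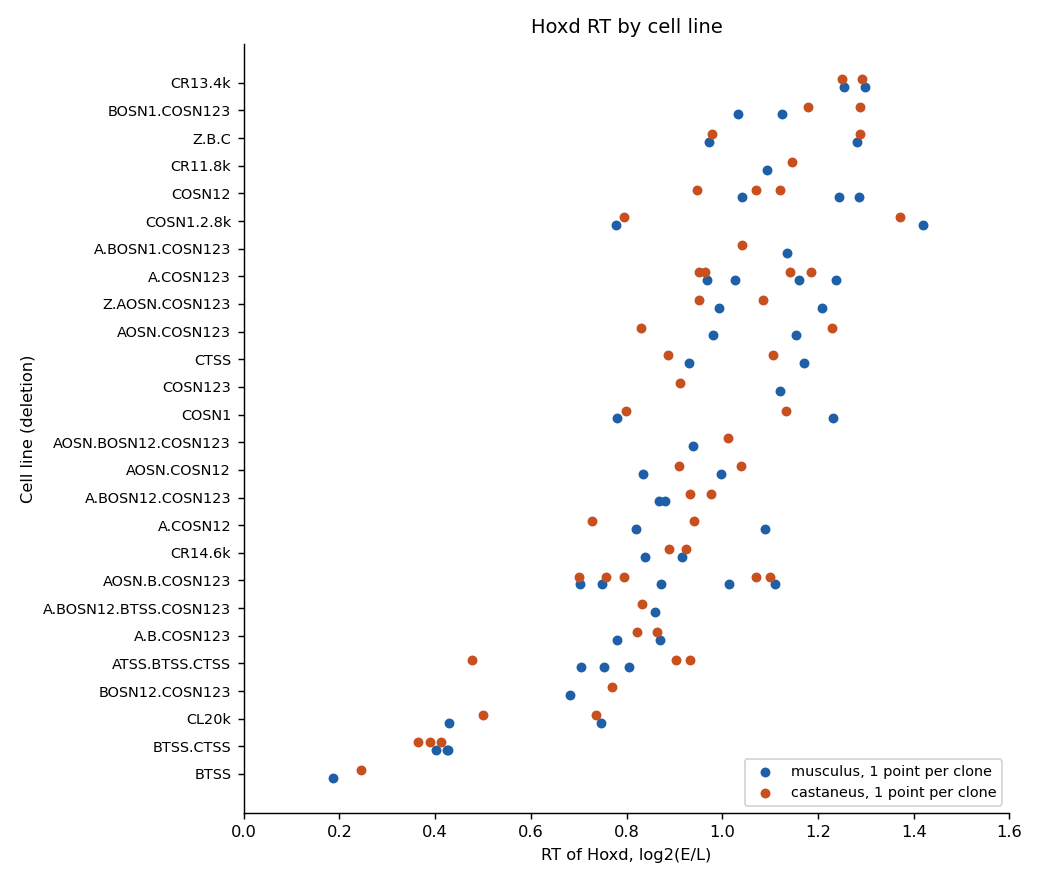
RT of Hoxd, log2(E/L), in each clone by cell line, named by its deletion on chromosome 16, on musculus (blue) and castaneus (orange), 1 point per clone and homolog, lines ordered by their mean. BTSS and BTSS.CTSS lie lowest (0.19 to 0.43) and CR13.4k has the highest line mean (clones from 1.25 to 1.30), on both homologs. On musculus the CR13.4k values come from 2 of the 4 windows.

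In Hoxb the 4 windows tested on musculus passed the F test over lines (limma adjusted p from 0.00235 to 0.0421), where 61% of all windows passed. These windows share smoothing, so they are not separate observations. The line means ranged from 1.02 in ATSS.BTSS.CTSS (1.00, 1.00 and 1.04) to 1.54 in Z.B.C (1.45 and 1.62). On castaneus the ATSS.BTSS.CTSS clones had 0.89, 1.41 and 1.45. All of these values were above 0. Without ATSS.BTSS.CTSS, 2 of the 4 Hoxb windows passed on musculus (limma adjusted p = 0.013 and 0.0249), against 55.2% of all windows. The line means of Hoxc ranged from 1.00 in Z.AOSN.COSN123 to 1.58 in BOSN1.COSN123 on musculus and from 1.06 in COSN1.2.8k to 1.55 in CL20k on castaneus. Those of Hoxa on musculus were lowest at 1.16 in COSN1.2.8k and highest in BOSN1.COSN123, with 1.46 and 1.55 in its clones, and on castaneus they ranged from 1.12 in COSN1.2.8k to 1.45 in A.COSN123. On castaneus no Hoxb window could be fitted, because lines without castaneus values on chromosome 11 have none.

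Clones with COSN123 were compared with the other clones. No Hox window passed on either homolog (limma adjusted p of at least 0.357 on musculus and 0.39 on castaneus, 24 against 29 clones), where 1.31% of all windows passed on musculus and 0.528% on castaneus. At an unadjusted p under 0.05 the counts were 0 on musculus and 1 on castaneus. The estimates, COSN123 minus other, ran from -0.01 to 0.13 on musculus and from -0.04 to 0.15 on castaneus. The largest were in Hoxd, with a mean of 0.10 on each homolog, and these fell to 0.01 on each without BTSS and BTSS.CTSS. The difference between the homologs did not pass in any Hox window either (limma adjusted p of at least 0.73, estimates from -0.06 to 0.07, 0 of 16 with an unadjusted p under 0.05), against 0.333% of all windows.

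Chromosome 11, which carries Hoxb, had no castaneus values in 8 libraries of 6 clones. They were both A.B.COSN123 clones, AOSN.COSN12 F3, both BOSN1.COSN123 clones and the BOSN12.COSN123 clone. These have no Hoxb value on castaneus and entered no comparison of the homologs there. Their Hoxb RT on musculus was 1.28 and 1.48 in A.B.COSN123, 1.33 in AOSN.COSN12 F3, 1.44 and 1.31 in BOSN1.COSN123 and 1.28 in BOSN12.COSN123. This gives 1.35 ± 0.08 (SD, n = 6), within the range of 1.00 to 1.62 of the other 47 clones, whose mean was 1.34 ± 0.15 (SD). In 5 of these 6 clones the label holds COSN123, and the 19 other COSN123 clones had 1.33 ± 0.13 (SD). No test was made, since these clones belong to only 4 cell lines.

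Averaged over each cluster, the Hox windows were rich in CpG and poor in repeats, features that the choice by position did not use. CpG density averaged 21.3 per kb in Hoxa, 18.3 in Hoxb, 18.9 in Hoxc and 19.9 in Hoxd, from the 98.6th to the 99.7th percentile of all windows, whose median was 7.74. Hoxd was thus on average as rich in CpG as the earlier clusters. These percentiles set cluster means beside single windows, and single Hox windows varied. CpG was 7.98 per kb at chr2:74600001-74650000 (52.5th percentile) and 9.3 at chr6:52100001-52150000 (63.6th). GC content was less extreme, from 45.8% in Hoxd to 48.1% in Hoxb, against a median of 41.4%. The Hoxd window nearest to Lnpk had 41.2%. Repeats, as soft-masked bases, made up 17.5% of Hoxc, 22% of Hoxa, 22.8% of Hoxd and 26.2% of Hoxb, against a median of 31.4%. The window with 7 of the Hoxa genes had 12%, the 0.271st percentile, and a Hoxb window without Hox gene starts had 43%, the 78.9th. Coding gene starts averaged from 2 per window in Hoxb to 3.25 in Hoxa, against 0.422 over all windows.

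Values were missing more often in the gene-dense windows. The window of Hoxa2 and Hoxa4 had a value in 43 clones on musculus and 44 on castaneus, and the Hoxc window with 6 genes in 41 and 42. The Hoxb window of Hoxb3, Hoxb4 and Hoxb5 had 48 on musculus and 36 on castaneus, 6 of the missing being the clones without castaneus values on chromosome 11. The median over all windows with any value was 53 on musculus and 52 on castaneus. The CR13.4k clone 2-49 had no value in Hoxa on musculus or in Hoxc on either homolog, CR13.4k 2-12 none in Hoxc on musculus, and CR14.6k 53 none in Hoxc on castaneus. Restricting each cluster to clones with every window left the means within 0.03 of those above.

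A list of 25 partners and regulators of Hox proteins, among them the Meis and Pknox cofactors, retinoic acid receptors and Polycomb subunits, was placed in the same way. Of these 23 were above 0 on both homologs and 18 above the upper quartile of all windows, with a median of 1.16 on musculus and 1.13 on castaneus. The earliest was Meis3, a cofactor, at 1.37 on musculus and 1.37 on castaneus. Next came Kmt2a, the methyltransferase that maintains Hox expression, on musculus (1.32, with 1.31 on castaneus) and Evx1 on castaneus (1.32). The latest were Rarb, a retinoic acid receptor, at -1.01 and -0.87, and Meis1, a cofactor, at -0.57 and -0.53. By the call used for the clusters 2 of 25 differed between the homologs, against 19.6% of all windows: the Polycomb gene Rnf2 (0.47, limma adjusted p = 7.22e-27) was earlier on musculus, and Pknox2 (-0.27, limma adjusted p = 2.07e-13) was later. Evx2, next to Hoxd13, shares its window and its RT.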

How the data were processed

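E/L Repli-seq of F121-9 clones was used, with 142 samples (71 libraries of an early and a late fraction) in the labels. Per the study's methods, reads were trimmed (Trim Galore), aligned with bowtie2 to mm10 with SNP positions masked, split by SNPsplit into genome1 (musculus, strain 129) and genome2 (castaneus, CAST), filtered with Samtools and binned at 50 kb with bedtools. Values are deposited as log2 early-to-late ratios after scaling, quantile normalization and loess smoothing (300 kb) by the authors. Versions are not given in the sources used here, and depth is unknown, so no counting intervals are given. All 138 columns were used, giving 66 libraries; 5 libraries were not analysed here. Runs (3 libraries) and cultures were averaged per clone. p-values then measure the spread between clones.

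Genes were placed by their start sites in GENCODE annotation of the same build, whose chromosome ends matched the table. A start can lie in an upstream window where a long isoform begins.

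Differences were tested over all windows with limma 3.58.1 (R), with group means in closed form, tested on simulated data and checked against lmFit and eBayes, and Benjamini-Hochberg adjustment at 0.05. Windows needed values in at least 0.5 of the clones. Values by gene are given for the ends of each cluster and for the windows with the largest allele difference and the largest SD, and partners as a list with the 2 earliest and 2 latest. An item of that list is not reported here. Members, lists and tests were chosen with earlier results of these data known. Alternatives were other units, scale, filters, thresholds, leaving out each cell line and a replicate block.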

Additional observations from a re-analysis of the deposited data

Results flagged for a closer look

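Cluster RT was compared over the libraries of the 5 cell lines with 4 to 10 libraries, in 39 combinations of line, cluster and homolog, and 2 libraries stood apart by Dixon's criterion, about the 1 in 20 that chance flags. Culture 1 of CTSS clone C12 had a Hoxd RT of 0.67 on castaneus, below the range of 1.07 to 1.10 of the other libraries of that line (n = 4). Culture 2 of COSN123 clone A10 had a Hoxa RT of 1.31 on castaneus, below the range of 1.41 to 1.43 of the other cultures (n = 4).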

How the results depend on the processing

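Depth is unknown and windows share smoothing, so these limits concern clones alone. Cluster levels moved by less than 1 SD when libraries were the unit, when 1 window was added on each side, when libraries with a chromosome without values on 1 homolog were left out, and when any 1 cell line was left out (Hoxd on musculus between 0.92 and 0.97). Ranked within each clone's own profile, Hoxa, Hoxb and Hoxc stood lower, at the 91.1st, 90.6th and 90.5th percentile on musculus and the 90.5th, 89.8th and 88.2nd on castaneus, and Hoxd higher, at the 74.9th and 74.3rd. No Hox window was called between the homologs under leave-one-out (0 to 0), but 1 was with no threshold on size and 1 on the rank scale, where 27019 and 27029 windows were called in all; a threshold of 0.5 gave 2444. The Hoxd difference was 0.15 in the 3 libraries whose label carries a date. Culture numbers gave no general pairing of the cultures. Over 45 pairs of clones the correlation of their deviations ran from -0.31 to 0.46, with a median of 0.01, and exceeded 0.1 in 9. With the replicate block, in clones with numbered cultures, 1 of 5 Hox windows tested was called between the homologs (that of Hoxd1, 0.27), with a Hoxd mean of 0.17 and 0.05 without the block, and the Hoxd difference of COSN123 clones was -0.16 on musculus, of opposite sign to the 0.10 over all clones. No block changed a Hox call in the COSN123 comparison. For cell lines, 4 to 8 Hox windows passed on musculus and 1 to 4 on castaneus over leave-one-out (4 of the 6 on musculus without ATSS.BTSS.CTSS, 1 on castaneus without BTSS.CTSS, and 8 on musculus without CR13.4k, where 11 could be tested), and 1 on castaneus without BTSS and BTSS.CTSS. Window counts of the COSN123 comparison ranged from 125 to 2070 on musculus (main 586) and from 65 to 895 on castaneus (main 235) over leave-one-out, lowest without AOSN.B.COSN123 and highest without ATSS.BTSS.CTSS on both homologs, and were 1825 and 953 by library; without libraries with a chromosome without values on 1 homolog the count on musculus was 270, and in numbered cultures 266 with the block and 331 without it. For the difference between the homologs the counts were 66 to 414 over leave-one-out and 474 by library (main 143). The causes were not tested.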
